A study of Mus musculus with 8 samples.

Results

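The genes described here were long intergenic non-coding RNAs (lincRNAs), transcribed from DNA between protein-coding genes, that were well expressed in mouse embryonic stem (ES) cells. They were selected on a measured value. A gene of the count table was taken when its GENCODE M21 class was lincRNA, it lay on an autosome, and its mean over the 8 libraries was at least 5 CPM (counts scaled to the same column total for each library). A set of 7 names was left out by the rule, of which 4 (H19, Meg3, Gm26870 and B830012L14Rik) otherwise met it. This left 85 lincRNAs of 2134 autosomal lincRNA genes and 43309 genes in the table. The mean level over all libraries was therefore fixed by the choice and is given only as a description. The libraries were made from ES cells of the strain label J1 (129SV), grown on gelatin without feeder cells, and the cells were lysed directly into the SMARTer Ultra Low RNA Kit reaction. The 4 groups of 2 libraries were Zbtb24 wild type (2lox/+) at 1000 cells, Zbtb24 knockout (1lox/1lox) at 1000 cells, wild type at 100 cells and knockout at 100 cells. The wild-type cells also carried a floxed allele, so no group was free of the modified locus. The libraries of 1000 cells were amplified with 10 cycles of PCR and those of 100 cells with 18, so cell number and cycle number cannot be told apart. The sources do not say which clone gave which library, and p-values measure only the spread between these libraries.

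Long intergenic RNAs are copied by RNA polymerase II, and many are spliced and polyadenylated like messenger RNAs without coding for a protein. Some act in the nucleus as scaffolds: Malat1 lies in nuclear speckles, and Neat1 forms the core of paraspeckles. Others are hosts, whose introns or exons are cut into small nucleolar RNAs (the Snhg genes) or microRNAs (Mir17hg), and a set found in screens of ES cells carries the name Platr, for pluripotency-associated transcript. The kit primes cDNA at runs of A, so an RNA without a poly(A) tail is copied mainly from runs of A in its own sequence. How much of this class is kept when the input falls from 1000 to 100 cells, and how it differs by genotype at each input, were the questions the design put to these genes.

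Among the 85 genes, Mir17hg (chr14:115042879-115046727, plus strand, GRCm38) carries the clearest known sequence content, since the nucleus cuts the miR-17 to miR-92 microRNAs out of its transcript. The mature strands are shown because Mir17hg had the most negative interaction of genotype and input. Sequences are those of RefSeq on GRCm38.p6, 5′ to 3′, with the seed (bases 2 to 8), which pairs with target messages, in capitals.
mmu-miR-17-5p: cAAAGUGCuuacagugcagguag
mmu-miR-20a-5p: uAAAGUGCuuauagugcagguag
mmu-miR-18a-5p: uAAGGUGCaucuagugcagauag
mmu-miR-19a-3p: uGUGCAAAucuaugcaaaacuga
mmu-miR-19b-3p: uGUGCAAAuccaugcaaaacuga
mmu-miR-92a-3p: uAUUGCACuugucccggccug
The first pair shares the seed AAAGUGC, miR-19a and miR-19b share GUGCAAA, and miR-18a and miR-92a each have a seed of their own. The libraries measured the host transcript and not the mature microRNAs.

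Promoter windows, 250 bases before to 50 bases after the RefSeq start, were matched by symbol for 46 of the 85 genes, and 34 of those starts lay within 500 bases of the GENCODE start. A window was called CpG-rich with at least 50% GC and an observed to expected CpG ratio of at least 0.6. Of the 46, 17 (37.0%) were CpG-rich, against 33.5% of 32851 windows in the table. The windows of 2 lincRNAs that were higher in knockout libraries and of the ES cell RNA Lncenc1 are shown with each CpG in capitals, because they cover both kinds of promoter. The first is 4930558J18Rik (chr1:57377495-57377794, minus strand), with 42 CpGs and 75.3% GC, the next is 4930461G14Rik (chr9:58454923-58455222, plus strand), with 2 CpGs, and the last is Lncenc1 (chr13:97434720-97435019, plus strand), with 4 CpGs.
4930558J18Rik: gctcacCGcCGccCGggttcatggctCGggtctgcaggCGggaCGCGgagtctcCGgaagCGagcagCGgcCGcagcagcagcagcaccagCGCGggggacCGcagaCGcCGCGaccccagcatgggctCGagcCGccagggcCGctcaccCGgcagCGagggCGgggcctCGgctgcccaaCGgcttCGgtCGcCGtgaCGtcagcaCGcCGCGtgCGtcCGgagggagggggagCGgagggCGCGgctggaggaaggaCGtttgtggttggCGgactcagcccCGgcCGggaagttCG
4930461G14Rik: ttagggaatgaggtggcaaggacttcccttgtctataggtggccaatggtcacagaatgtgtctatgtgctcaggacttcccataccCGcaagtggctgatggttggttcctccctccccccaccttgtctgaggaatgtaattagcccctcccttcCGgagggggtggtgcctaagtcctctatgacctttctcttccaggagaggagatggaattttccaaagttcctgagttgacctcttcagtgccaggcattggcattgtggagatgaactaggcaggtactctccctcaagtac
Lncenc1: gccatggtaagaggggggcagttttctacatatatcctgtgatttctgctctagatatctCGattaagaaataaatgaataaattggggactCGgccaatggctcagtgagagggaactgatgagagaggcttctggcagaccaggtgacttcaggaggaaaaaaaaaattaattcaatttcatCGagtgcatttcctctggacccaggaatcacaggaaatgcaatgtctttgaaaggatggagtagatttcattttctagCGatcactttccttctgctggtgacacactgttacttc

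The libraries held 9666985 to 16686525 counts. The targeted gene went against the labels: Zbtb24 was at 14.1 and 16.4 cpm in the libraries labelled wild type (WT) at 1000 cells and at 40.9 and 37.7 cpm in those labelled knockout (KO), and at 19.5 and 20.3 against 39.7 and 37.3 cpm at 100 cells. A whole-gene count cannot show the loss of an exon, and directions below are those of the libraries labelled KO relative to those labelled WT. Levels are counts scaled to the library size after TMM normalization over all 8 libraries (cpm). The KO libraries of 100 cells stood apart in markers of other cell types: 6 of 6 oligodendrocyte markers were higher there than in WT at 100 cells. Their summed level was 256 to 263 cpm against 43 to 53.6 cpm in the other 6 libraries. Of 6 astrocyte markers 5 were higher, and of 8 neuronal markers 6 were higher and 1 lower. Of all tested genes, 17.6% were higher and 16.6% lower in this comparison. Summed astrocyte markers were at 208 to 216 cpm there and at 74.0 to 153 cpm elsewhere, whereas summed neuronal markers were at 528 to 550 cpm there and at 408 to 535 cpm elsewhere. The ES cell markers were at 5936 to 7592 cpm in all libraries, with 4 of 10 higher and 1 lower in KO than in WT at 100 cells. Between 100 and 1000 cells in KO, 6 of the 10 ES cell markers were lower and 2 higher, whereas 7 of 8 neuronal, 6 of 6 oligodendrocyte and 5 of 6 astrocyte markers were higher. Over all tested genes, 24.8% were lower and 27.3% higher there. Primitive endoderm, trophoblast and fibroblast markers summed to at most 12.7 cpm in any library, and Foxa2 and Cdx2 were at 3 counts or fewer. The part of other cells in the results for KO at 100 cells was not tested. In such bulk libraries, fewer cells of a type and less RNA per cell cannot be told apart.

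The 85 lincRNAs ranged from 5.16 to 996 CPM in their mean, with a median of 10.6 CPM. Only 3 were above 100 CPM, 43 lay between 10 and 100 CPM and 39 below 10 CPM. Just inside the limit were 5430416N02Rik (5.16 CPM), Gm12031 (5.26 CPM) and 1700001L05Rik (5.39 CPM), and just outside it C330002G04Rik (4.99 CPM), Gm26563 (4.88 CPM) and Gm33994 (4.87 CPM). Every member had at least 14 counts in every library, and 67 were at 5 CPM or more in each of the 4 groups. A member under the limit in a group met it through other groups, so the choice favored differences in such members. Counts of calls below are not given for the 67 alone. The genes lay on all 19 autosomes, had a median exonic length of 2467 bases and a median of 3 exons, and 7 had a single exon. Their transcripts had a median GC content of 47.1%, against 49.4% over all tested genes. Counting ignored strand and dropped fragments of repeated sequence: 9 members overlapped an opposite-strand exon over at least 10% of their exonic length, and 24 shared at least 10% of their 50-base windows with another transcript. Levels of these genes are uncertain, and 58 members were under 10% for both measures and for overlap on their own strand.

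Malat1 (chr19:5795690-5802672, minus strand) was the most abundant, followed by Gm26905 (chr8:58171435-58298866), Lncenc1 (chr13:97434970-97497007), 1810058I24Rik, 1700020I14Rik (the Cyrano RNA, which binds miR-7), Gm20939, Snhg6, Gm16702, EU599041 and Gm2694. With 1000 cells, Malat1 was at 1195 and 1320 cpm in the WT pair of libraries and at 997 and 1129 cpm in the KO pair. With 100 cells, the WT pair was at 872 and 875 cpm and the KO pair at 786 and 770 cpm. It was thus highest in the WT libraries of 1000 cells, and both inputs of each genotype were apart. Per kilobase of exon the order changed: Malat1 led with a mean level of 142 cpm per kb, ahead of Platr3 (88.2), Lncenc1 (69.4), Snhg6 (58.8), Epb41l4aos (57.5) and Gm26905 (57). All 85 together took 0.393% ± 0.018 (SD, n = 2) of the counts in the WT libraries of 1000 cells and 0.304% ± 0.011 in the KO libraries. At 100 cells these shares were 0.328% ± 0.043 for WT and 0.224% ± 0.003 for KO. Without Malat1 the shares were 0.262%, 0.200%, 0.240% and 0.148%, so the order of the groups did not rest on Malat1. Gm26905, next in abundance, had mean levels of 685, 140, 556 and 130 cpm in these groups. Shares without Gm26905 are not given, so how far the order rests on it was not tested.

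Replicates of these genes were close except in WT at 100 cells. There, replicate 1 exceeded replicate 2 by a median of 0.19 on the log2 scale over the members, whereas the median over autosomal coding genes of at least 5 CPM was -0.02. The difference was over 1.5-fold for 15 members in that group, for 1 in WT at 1000 cells, for none in KO at 1000 cells and for 2 in KO at 100 cells. Lncenc1 was at 328 and 196 cpm in these WT libraries of 100 cells and Gm26707 at 49.3 and 26.4 cpm. Results that rest on this group are therefore also given without a replicate. A fit without either WT library of 100 cells leaves a single library in this group. Its p-values and numbers of calls then do not measure the spread there.

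**Figure D1:**
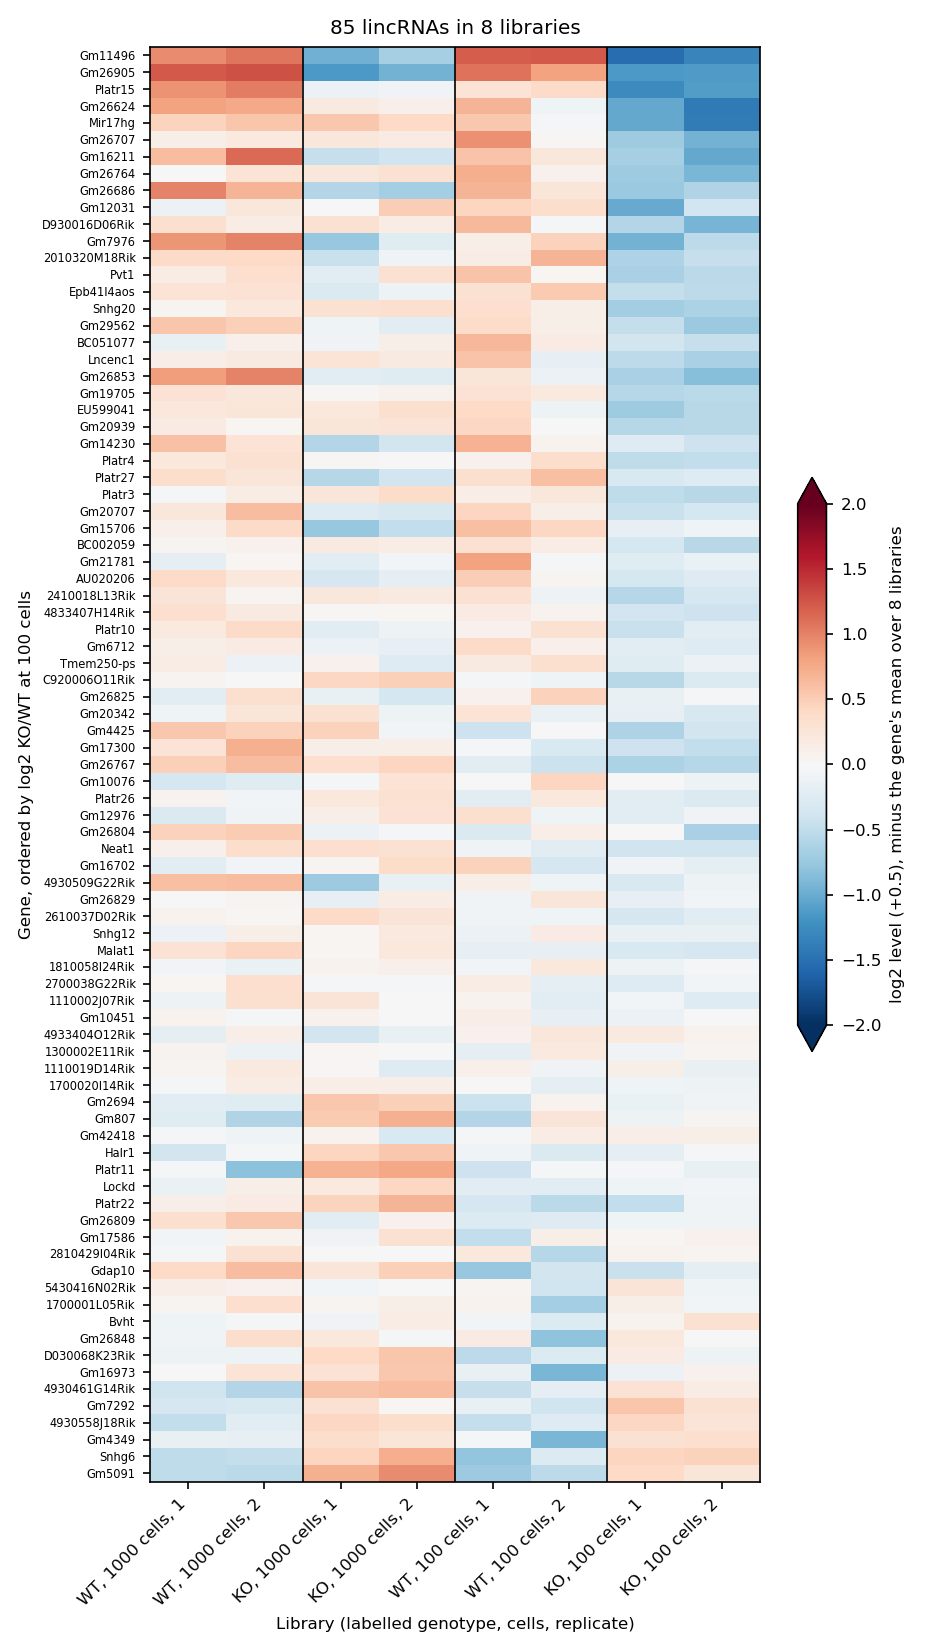
Heat map of the 85 lincRNAs (rows) in the 8 libraries (columns, by labelled genotype, cell number and replicate), with the log2 level (pseudocount 0.5) minus the gene's mean over the libraries as color and rows ordered by the log2 KO/WT ratio at 100 cells. The upper rows are blue mainly in the KO libraries of 100 cells, whereas Gm11496 and Gm26905 are blue in KO libraries of both inputs.

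At 1000 cells, members differed between the labelled genotypes in both directions. Of the 85, 18 were higher and 22 lower in KO than in WT (edgeR quasi-likelihood test, adjusted p at most 0.05 over 16816 tested genes), where 20.9% of all tested genes were higher and 20.6% lower. The members' shares, 21.2% and 25.9%, were thus near those of all genes, and their median log2 ratio was -0.02 against 0.00 over all tested genes. Scaled by library size alone, 12 were higher and 26 lower. DESeq2 called 11 higher and 18 lower, and 1 fit of all 8 libraries called 10 and 19. Without KO replicate 2, 10 were higher and 21 lower, and without WT replicate 1, 11 and 24. Levels did not overlap between genotypes for 25 members higher and 30 lower in KO, as for 34.6% and 34.7% of all tested genes.

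At 100 cells, most members called were lower in KO. Of the 85, 5 members were higher and 35 lower in KO, whereas 17.6% of all tested genes were higher and 16.6% lower. The members' shares were 5.88% and 41.2%, and their median log2 ratio was -0.34 against 0.00 over all tested genes. Levels in KO lay below WT without overlap for 47 members and above for 11, where the shares of all tested genes were 32.0% and 38.1%. DESeq2 called 3 higher and 26 lower. Leaving out KO replicate 1 or 2 at 100 cells gave 1 higher and 19 lower or 2 higher and 17 lower, and leaving out WT replicate 1 or 2 gave 11 higher and 43 lower or 8 higher and 42 lower, so the excess of lower calls was present in each.

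The genotypes were compared on separate libraries at each input, and 23 members passed at both inputs with the same sign, 18 lower and 5 higher, which is 57.5% of the 40 called at each input. As shares of the 85 these were 21.2% and 5.88%, where 9.24% of all tested genes were lower and 7.52% higher at both inputs. A further 12 members were higher and 4 lower in KO at 1000 cells and not called at 100 cells (14.1% and 4.71%, against 12.9% and 10.5% of all tested genes). At 100 cells 16 were lower and 0 higher without a call at 1000 cells (18.8%, against 6.89% lower and 9.17% higher of all tested genes). Platr3 was the single gene called in opposite directions. The genotype was called at neither input for 29 members (34.1%, against 42.4% of all tested genes).

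**Figure D2:**
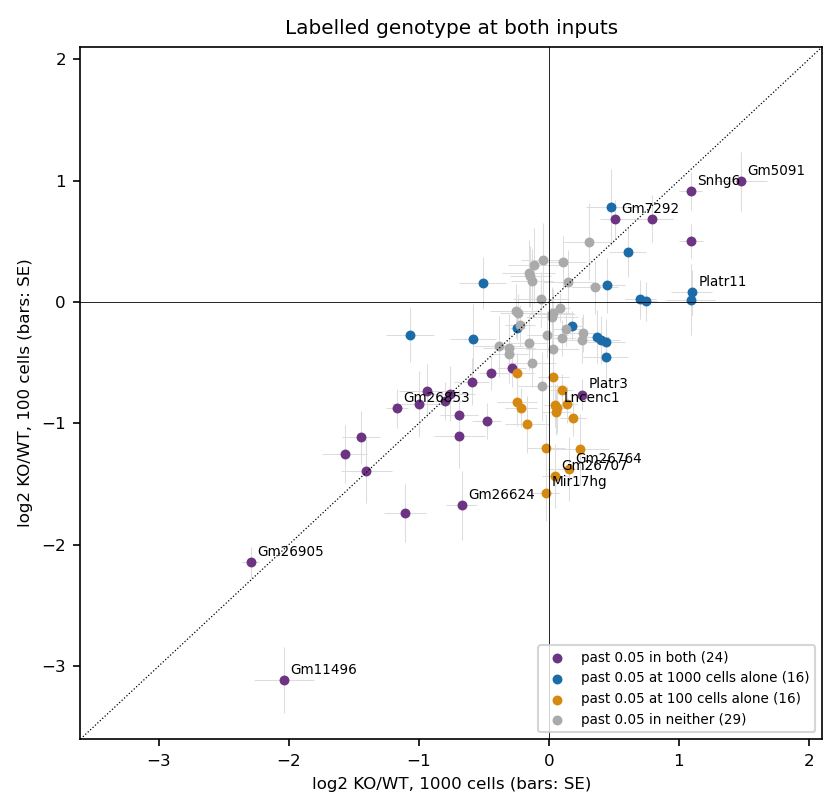
Log2 KO/WT ratio of each of the 85 lincRNAs at 1000 cells (x axis) and at 100 cells (y axis), with standard errors as grey bars, the dotted line marking equal ratios and colors the inputs at which the adjusted p was at most 0.05. Gm26905 and Gm11496 lie far to the lower left at both inputs, while Mir17hg, Gm26707 and Gm26764 lie near 0 at 1000 cells and below -1.3 at 100 cells.

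The members with the largest falls at both inputs were Gm11496, Gm26905, Platr15, Gm26686 and Gm16211. All but Gm26905 were under the 5 CPM limit in a KO group and met it through the WT libraries. The lowest group mean was 2.56 CPM for Platr15, 4.68 CPM for Gm26686 and 3.18 CPM for Gm16211. The choice of members therefore favored falls of this kind. Gm26905, the second most abundant, was at 675 and 694 cpm in WT and 130 and 150 cpm in KO with 1000 cells, and at 610 and 503 against 129 and 131 cpm at 100 cells. The genotypes were far apart at both inputs. Its log2 KO/WT ratio was -2.29 ± 0.07 (SE, adjusted p = 5.25e-21) at 1000 cells and -2.14 ± 0.13 (adjusted p = 1.87e-05) at 100 cells. It shares 93.2% of its 50-base windows with transcripts of 384 other genes, so its level is uncertain, and where in the gene its counts fell was not tested.

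Gm11496 (chr11:88993040-88996544), a gene of 2 exons between Coil and Trim25, shares no 50-base window with another transcript. It was at 8.05 and 8.84 cpm in WT and 1.79 and 2.28 cpm in KO with 1000 cells. With 100 cells the values were 9.79 and 9.88 against 1.04 and 1.28 cpm. The ratios were -2.03 ± 0.23 (adjusted p = 2.58e-08) and -3.11 ± 0.27 (adjusted p = 1.08e-04). Coil, 1427 bases away, fell by 0.42 and 0.53 on the log2 scale at 1000 and 100 cells, and Trim25 by 0.40 and 1.39, all past the threshold.

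Platr15, from the ES cell screen, fell by 1.11 and 1.74 on the log2 scale at 1000 and 100 cells. Gm26686 (chr1:128770599-128774421) fell by 1.57 and 1.25 and Gm16211, between zinc finger genes on chromosome 4, by 1.40 and 1.39. Replicates of these genes did not overlap between genotypes at either input. Without KO replicate 2 at 100 cells, Gm16211 was no longer called there (-1.21, adjusted p = 0.0574).

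The members that rose at both inputs, in order of their mean ratio, were Gm5091, Snhg6, 4930461G14Rik, 4930558J18Rik and Gm7292. Snhg6, which hosts a small nucleolar RNA in an intron, was at 44.0 and 45.2 cpm in WT and 84.9 and 104 cpm in KO with 1000 cells, and at 36.3 and 51.9 against 85.1 and 87.0 cpm at 100 cells. KO was above WT in every pair of libraries. The ratios were 1.09 ± 0.09 (adjusted p = 4.90e-11) and 0.92 ± 0.16 (adjusted p = 0.00236). Mcmdc2 covers 11.1% of its exons on the opposite strand.

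Gm5091 (chr17:15231581-15247917) rose from 3.65 and 3.60 cpm to 9.25 and 10.9 cpm at 1000 cells, a log2 ratio of 1.48 ± 0.20, and from 3.07 and 3.62 to 7.31 and 6.5 cpm at 100 cells, 0.99 ± 0.25. Its WT levels were under the 5 CPM limit, which it met through its KO libraries, so the choice favored this rise. The ratio of 4930461G14Rik was 1.09 at 1000 cells and 0.50 at 100 cells, and that of 4930558J18Rik 0.79 and 0.69. Their promoters, printed above, belong to opposite kinds, CpG-poor and CpG-rich. The coding gene 1700066M21Rik lies 76 bases from 4930558J18Rik, so the CpG-rich window reaches into the span of that gene. It rose in KO as well, by 0.78 (adjusted p = 5.67e-04) at 1000 cells and 1.21 (adjusted p = 0.00402) at 100 cells. Gm7292, at 0.51 and 0.68, is a single exon that shares 77.5% of its windows with 2900097C17Rik. Leaving out either KO library at 100 cells ended the calls there of Gm5091 (adjusted p = 0.195 and 0.106), 4930461G14Rik (0.292 and 0.152) and 4930558J18Rik (0.290 and 0.168), and leaving out KO replicate 1 that of Gm7292 (0.202).

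Coding genes of whole chromosome regions were shifted with genotype as well. Coding genes of chromosome 1 with at least 10 cpm had a median log2 KO/WT ratio of 0.56 at 1000 cells and 0.47 at 100 cells, and of the 6 members there, 3 (Snhg6, 4930558J18Rik and Platr22) were higher and 1 (Gm26686) lower at 1000 cells. Coding genes in the first 60 Mb of chromosome 8 had medians of -0.51 and -0.62, and the 3 members there, Gm26905, Gm26853 and Gm26804, were all lower at 1000 cells. Their ratios at 1000 cells were -2.29, -1.17 and -0.58. The medians of every other whole chromosome with a member, chromosome 8 aside, lay between -0.07 and 0.10 at 1000 cells. Gm26853 (chr8:19789798-19798548) stood in a block of pseudogenes of which Gm6483, 6820431F20Rik, 2610005L07Rik and Gm21092 were also lower, by 0.99, 0.56, 0.81 and 0.54 on the log2 scale at 1000 cells, while Rpl19-ps11 at its edge was higher by 0.28. The part of these regional shifts in the members' ratios was not tested.

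**Figure D3:**
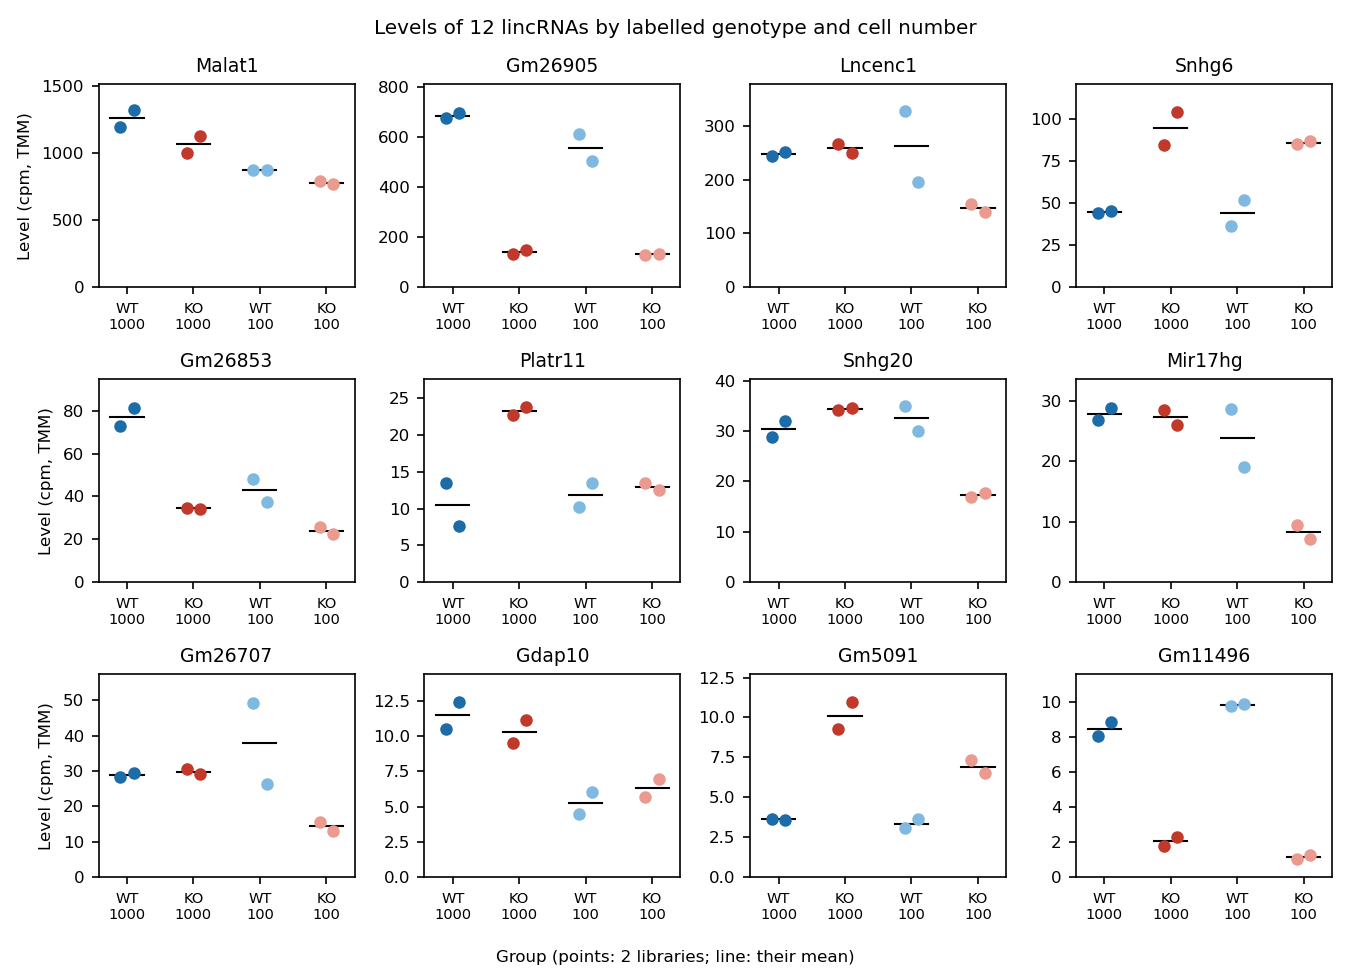
Levels (cpm, linear axis from 0) of 12 lincRNAs in the 4 groups, with a point for each of the 2 libraries and a line for their mean. Gm26905, Gm11496 and Gm26853 are lower in KO at both inputs, Snhg6 and Gm5091 higher at both, and Mir17hg, Snhg20 and Gm26707 are low only in the KO libraries of 100 cells.

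The change of input was tested over both genotypes and within each. Over both, no member was higher at 100 than at 1000 cells and 11 were lower, where 6.64% of all tested genes were higher and 3.83% lower. At an unadjusted p below 0.05, 2 were higher and 26 lower, and DESeq2 called 0 higher and 11 lower. The members' median log2 ratio was -0.24 against 0.01 over all tested genes, and 69 of the 85 ratios were below 0 (49.2% of all genes). The 11 were Malat1, Gm26853, Neat1, Mir17hg, Gm26624, Platr22, Gm26767, Gdap10, Platr15, Gm17300 and Gm4425. Their number was 23 without WT replicate 1 at 100 cells, between 5 and 6 without any of the 4 KO libraries, and 7 once trends with GC content and length were taken out library by library.

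Gm26767 (chr9:97068183-97073429) fell the most, from 12.2 and 13.4 cpm in WT and 11 and 11.8 cpm in KO to 7.32 and 6.26 cpm and 5.37 and 5.67 cpm at 100 cells. All 4 libraries of 100 cells were below all 4 of 1000 cells. The log2 ratio was -0.98 ± 0.13 (adjusted p = 0.00401). Gdap10, whose span touches that of Nampt, was at 10.5 and 12.4 cpm in WT and 9.48 and 11.1 cpm in KO at 1000 cells against 4.45 and 6.04 cpm and 5.67 and 6.95 cpm at 100 cells (-0.91 ± 0.17, adjusted p = 0.0102). Mir17hg (-0.93), Platr15 (-0.92) and Gm26624 (-0.89) completed the 5 largest. Those of Mir17hg and Gm26624 were lost without any of the KO libraries, at an adjusted p of 0.119 to 0.146 and 0.0827 to 0.0895, or without WT replicate 2 at 100 cells (0.0879 and 0.0685), and that of Mir17hg also without WT replicate 2 at 1000 cells (0.0503).

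In WT alone, few lincRNAs passed. No member was higher and 3 were lower, where 0.149% of all tested genes were higher and 0.678% lower. At an unadjusted p below 0.05, 2 were higher and 17 lower, and DESeq2 called 0 and 3. The median log2 ratio of the members was -0.06. The 3 were Gdap10 (-1.13 ± 0.24, adjusted p = 0.0396), Gm26853 (-0.87 ± 0.15, adjusted p = 0.0188) and Malat1 (-0.54 ± 0.11, adjusted p = 0.0398). By edgeR, no member was called without WT replicate 1 or 2 at 1000 cells, nor after thinning to the smallest total, nor with the trend in GC content and length removed. Without WT replicate 1 at 100 cells, 25 were lower and 4 higher, and without replicate 2, 9 were lower and 8 higher.

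In KO, 46 members were lower at 100 than at 1000 cells and 3 were higher, where 24.8% of all tested genes were lower and 27.3% higher. The members' shares were 54.1% and 3.53%, and their median log2 ratio was -0.37 against 0.00. Levels lay below those of 1000 cells without overlap for 56 members and above for 7, where 37.8% and 37.6% of all tested genes did so. Of the lower members, 8 fell to less than 0.5 of their level. Over the alternatives, between 33 and 50 were lower and at most 3 higher. The 3 higher were 4933404O12Rik (0.39), Gm7292 (0.27) and Gm15706 (0.54), named after their values were seen.

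Mir17hg fell the most. It was at 28.6 and 26.0 cpm in the KO libraries of 1000 cells and at 9.40 and 7.10 cpm in those of 100 cells, whereas in WT it was at 26.8 and 28.9 cpm and at 28.7 and 19.1 cpm. Only the KO libraries of 100 cells were low. The log2 ratio was -1.72 ± 0.13 (adjusted p = 2.84e-13) in KO and -0.24 ± 0.19 (adjusted p = 0.676) in WT. Lncenc1, needed for the naive state of ES cells, fell from 267 and 251 cpm to 154 and 141 cpm in KO (-0.81 ± 0.06), and its WT levels of 244 and 251 cpm and of 328 and 196 cpm overlapped (0.07 ± 0.18).

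**Figure D4:**
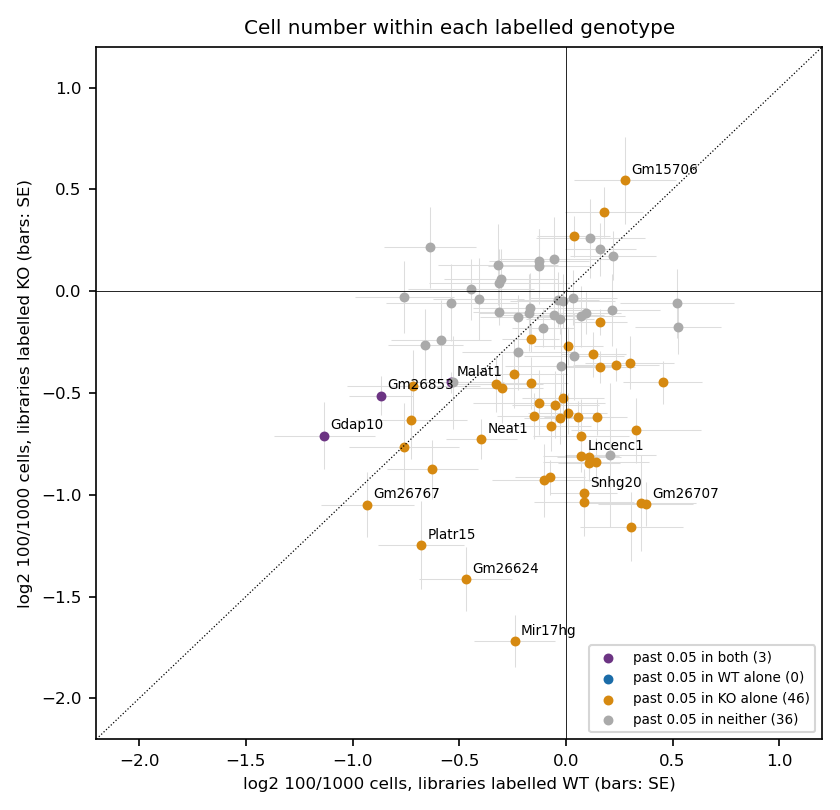
Log2 ratio of 100 to 1000 cells for each of the 85 lincRNAs in WT libraries (x axis) and KO libraries (y axis), with standard errors as grey bars, the dotted line marking equal ratios and colors the genotypes in which the adjusted p was at most 0.05. The 46 genes called lower in KO lie below 0 on the y axis and on both sides of 0 on the x axis, with Mir17hg lowest at -1.72 in KO.

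The difference between genotypes in the input ratio was tested as an interaction over all 8 libraries. It was negative for 18 members, which fell more in KO than in WT, and positive for none, where 7.05% of all tested genes were lower and 9.28% higher. At an unadjusted p below 0.05, 32 were negative and 2 positive, and DESeq2 called 13 negative and 0 positive. The members' median was -0.21 against 0.00 over all tested genes. Without WT replicate 1 at 100 cells, 27 were negative and 7 positive, without WT replicate 2 at 100 cells, 27 and 0, and without any other library, 7 to 11 were negative and 0 positive. The KO libraries of 100 cells, in which the glial markers were high, enter this test as well as those of genotype at 100 cells and of input in KO, so the 3 results are not independent of each other.

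The 3 most negative were Mir17hg (-1.49 ± 0.25, adjusted p = 0.00250), Gm26764 (-1.48 ± 0.31, adjusted p = 0.00692) and Gm26707 (-1.43 ± 0.29, adjusted p = 0.00645). Gm26707, which overlaps Cyp2s1 over 6.66% of its exons, was at 28.2 and 29.5 cpm in WT and 30.5 and 29.1 cpm in KO with 1000 cells, and at 49.3 and 26.4 against 15.6 and 13.1 cpm at 100 cells. Its interaction was -0.92 without WT replicate 1 at 100 cells and -1.82 without replicate 2. Each of these fits left a single library in the group with the widest spread, so no p-value is given for them. Gm26764 (chr12:87332488-87335655) was at 14.7 and 9.28 against 5.07 and 4.38 cpm at 100 cells and at 8.62 to 10.9 cpm in the 4 libraries of 1000 cells. Its mean in KO at 100 cells, 4.60 CPM, was under the 5 CPM limit, so the choice favored this low value. Its call was lost without KO replicate 2 at 100 cells (-1.37, adjusted p = 0.0513).

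Of the 10 nuclear architecture and decay RNAs on the list used here, 9 were found by name and 3 of these were members. The Cyrano RNA, listed as Oip5os1, was not found under that name. It is also a member and is described below as 1700020I14Rik. Malat1 was lower in KO at 1000 cells (-0.24, adjusted p = 0.00166; 0.0709 without WT replicate 2) and at -0.21 at 100 cells (adjusted p = 0.145). It fell with input in both genotypes, by 0.54 in WT and 0.45 in KO, and the call in WT was lost without either WT library of 1000 cells (adjusted p = 0.692 and 1.00). Neat1 was at 26.7 and 32.0 cpm in WT and 31.6 and 30.9 cpm in KO with 1000 cells, and at 23.8 and 21.1 and 18.8 and 18.9 cpm at 100 cells (-0.56 over both genotypes, adjusted p = 0.0132). Its call over both genotypes was lost without any of the KO libraries (adjusted p = 0.0544 to 0.0626). Pvt1, which lies beside Myc, was at -0.17 at 1000 cells and lower in KO at 100 cells (-1.01, adjusted p = 0.0106; 0.0929 and 0.0593 without KO replicate 1 or 2), whereas Myc, 47612 bases away, fell at both inputs, by 1.53 and 1.76. Among the 9 tested genes found by name on that list, 5 were lower in KO at 100 than at 1000 cells and none higher. Of all tested genes, 24.8% were lower and 27.3% higher there. The Cyrano RNA was also lower in this comparison (-0.23, adjusted p = 0.00355).

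The snoRNA host list had 4 members among 13 tested genes. Snhg6 was the member that rose in KO, and it kept its level at 100 cells, with input ratios of -0.03 in WT and -0.14 in KO. Snhg20 was at 28.8 and 32.0 cpm in WT and 34.2 and 34.5 cpm in KO with 1000 cells, and at 35.0 and 30.0 against 16.8 and 17.7 cpm at 100 cells. It was thus low only in KO at 100 cells, with an interaction of -1.09 ± 0.17 (adjusted p = 0.00173). Epb41l4aos was lower in KO at both inputs (-0.48 and -0.98), as was Epb41l4a, 341 bases away on the other strand (-0.30 and -0.49). Snhg12 moved least, at 26.9 to 34.2 cpm in every library, and was called only for input in KO (-0.27, adjusted p = 0.0147), a call lost without KO replicate 2 at 1000 cells or either KO library at 100 cells (adjusted p = 0.0877 to 0.119). In all, 9 of the 13 tested hosts were lower and 1 higher at 100 cells in KO, where 24.8% of all tested genes were lower and 27.3% higher.

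Mir17hg was the member among 7 tested microRNA hosts. At 100 cells 3 hosts were lower and 1 higher in KO than in WT, where 16.6% of all tested genes were lower and 17.6% higher. Apart from Mir17hg, those called had low means: Mir142hg (0.84 CPM) and Mirt1 (2.83 CPM), both lower, and Mir99ahg (0.24 CPM), higher. The log2 ratio of Mir17hg at 100 cells was -1.57 ± 0.23 (adjusted p = 0.00129) against -0.03 ± 0.11 at 1000 cells (adjusted p = 0.874).

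The list of pluripotency-associated RNAs held 10 members (Lncenc1, Halr1 and 8 Platr genes) among 25 tested genes. At 1000 cells, 4 of the 10 were higher in KO (Platr11, Halr1, Platr22 and Platr3) and 3 lower (Platr15, Platr27 and Platr10), and at 100 cells none was higher and 6 were lower (Lncenc1, Platr3, Platr15, Platr27, Platr4 and Platr10). Over all 25, 4 were higher and 12 lower at 1000 cells, and 0 and 13 at 100 cells, where 20.9% and 20.6% of all tested genes were higher and lower at 1000 cells and 17.6% and 16.6% at 100 cells. Platr11 was at 13.5 and 7.61 cpm in WT and 22.7 and 23.8 cpm in KO with 1000 cells, and at 10.3 and 13.4 against 13.5 and 12.5 cpm at 100 cells. Its rise in KO was seen only at 1000 cells (1.10 ± 0.16, adjusted p = 1.52e-06) and the interaction was -0.99 ± 0.30 (adjusted p = 0.0344), lost without any of the KO libraries or WT replicate 2 at 1000 cells (adjusted p = 0.0757 to 0.134). Halr1, transcribed beside the Hoxa genes, was at 16.5 and 21.1 against 29.0 and 31.5 cpm at 1000 cells (0.70, adjusted p = 1.66e-05) and at 20.6 and 17.6 against 18.7 and 21.2 cpm at 100 cells (0.02, adjusted p = 0.924).

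Platr3 was at 34.4 and 39.4 cpm in WT and 42.0 and 45.7 cpm in KO with 1000 cells, and at 38.9 and 41.5 against 24.8 and 24.0 cpm at 100 cells. It changed side, from 0.25 (adjusted p = 0.0319) to -0.76 (adjusted p = 0.00215), with an interaction of -0.97 ± 0.16 (adjusted p = 0.00212). The small rise was lost by DESeq2 and without WT replicate 1 or KO replicate 2 (adjusted p = 0.313 and 0.226). Platr27 kept the same ratio at both inputs (-0.80 and -0.82). Without either KO library at 100 cells, the calls there of Platr27 (adjusted p = 0.0802 and 0.0619), Platr4 (0.163 and 0.15) and Platr10 (0.254 and 0.0743) were lost, and without KO replicate 2 that of Platr3 (0.0593). Input over both genotypes was called for Platr15 and Platr22 alone among the 10, and in KO 8 of the 10 were lower at 100 cells. Over all 25 tested genes of the list, 4 were lower over both genotypes and 14 in KO, and 0 were higher in either. Of all tested genes, 3.83% were lower and 6.64% higher over both genotypes, and 24.8% and 27.3% in KO. The rise of Platr22 at 1000 cells was lost without WT replicate 1 or KO replicate 2 (adjusted p = 0.0540 and 0.177), and its fall with input without KO replicate 2 at 1000 cells or KO replicate 1 at 100 cells (0.0568 and 0.0520). Platr26 was called for input in KO only (-0.52, adjusted p = 4.40e-04).

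The brain-enriched list had 1 member among 5 tested genes. The Cyrano RNA 1700020I14Rik was at 69.7 to 88.0 cpm in every library, did not pass for genotype (0.09 and -0.05) and was lower in KO at 100 cells than at 1000 (-0.23, adjusted p = 0.00355). The other 4 tested genes of the list (Snhg11, C130071C03Rik, Pantr1 and Miat) were all higher at 100 cells in KO, the direction of the glial markers. Of all tested genes, 27.3% were higher and 24.8% lower there. Snhg11 rose by only 0.19 on the log2 scale. C130071C03Rik, Pantr1 and Miat were near the floor, at means of 0.11, 0.07 and 0.18 cpm in KO at 1000 cells and 0.83, 0.75 and 1.92 cpm at 100 cells.

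Among the 10 most abundant members, Gm2694 and Gm16702 rose in KO at 1000 cells (0.74, adjusted p = 3.17e-08, and 0.37, adjusted p = 0.00174) and were at 0.01 and -0.29 at 100 cells. Gm20939 and EU599041 were at 0.14 and 0.05 at 1000 cells and fell by 0.84 and 0.85 at 100 cells. Gm20939 had 74.3 and 67.7 cpm in WT and 77.6 and 78.8 cpm in KO with 1000 cells, and 88.3 and 66.3 against 44.1 and 44.6 cpm at 100 cells. The ratios of 1810058I24Rik were within 0.20 of 0 in every comparison but the interaction (-0.33), and its calls in KO, 0.18 at 1000 cells for genotype and -0.15 for input, were lost when any library of the first and 3 of the 4 of the second were left out. The genotype and input calls of Gm16702 were lost without KO replicate 2 at 1000 cells (0.21 and -0.19, adjusted p = 0.137 and 0.0592).

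Set beside other classes, the 85 were not alone in this course. Of 79 autosomal genes of other long non-coding classes with at least 5 CPM (antisense, processed transcript and the like), 33 were lower and 4 higher in KO at 100 cells (median log2 ratio -0.39) and 47 lower and 2 higher at 100 cells in KO (-0.40). Of 9254 autosomal coding genes with at least 5 CPM, 20.2% were lower and 17.9% higher in KO at 100 cells (-0.03). For input in KO, 30.5% of them were lower and 30.0% higher (-0.02). The 351 tested autosomal lincRNAs below the limit had medians of -0.23 and -0.34 for the same comparisons. In KO at 100 cells 52 of them were lower and 24 higher (14.8% and 6.84%). For input in KO 74 were lower and 34 higher (21.1% and 9.69%). Of all tested genes, 16.6% were lower and 17.6% higher in the first comparison, and 24.8% and 27.3% in the second. The difference between classes was not tested.

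**Figure D5:**
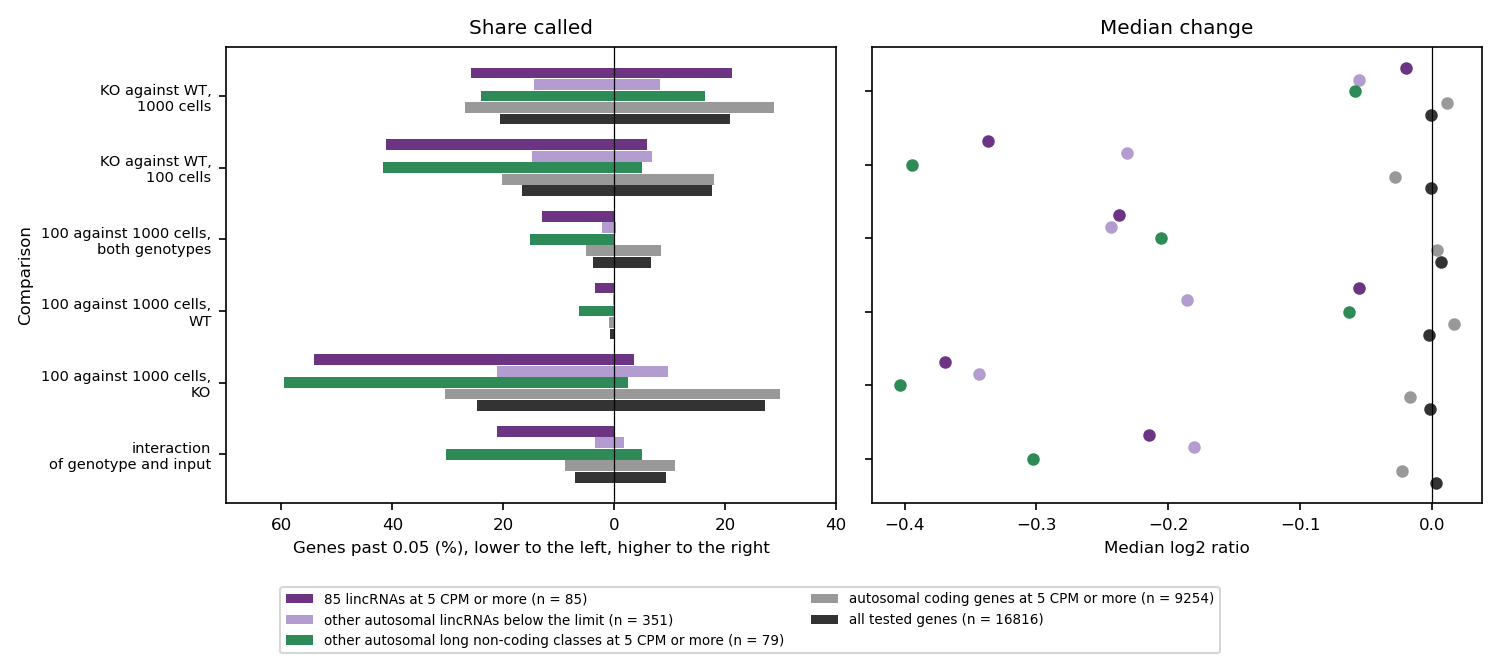
Share of genes past the threshold in each comparison (left, lower genes to the left of 0 and higher genes to the right) and median log2 ratio (right) for the 85 lincRNAs, other lincRNAs, other long non-coding classes, coding genes and all tested genes. At 100 cells in KO, the lincRNAs and the other long non-coding classes have medians of -0.37 and -0.40, and coding genes -0.02.

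Properties of the transcripts moved with the input ratio to a small degree. Across the 85 genes, which share libraries and are not independent, Spearman's rho between GC content and the input ratio was 0.29 in WT and 0.19 in KO, and with the length of the longest transcript -0.32 and -0.01. The 25 members with under 43% GC had a median input ratio of -0.17 in WT and -0.45 in KO, and the 28 with over 48% GC 0.05 and -0.32. After removal of the trend with GC content and length, 40 members were lower and 3 higher in KO at 100 cells against 1000 cells, and the medians in WT and KO were -0.01 and -0.31. The longest run of A in an annotated transcript had under 10 bases in 68 members, 10 to 14 in 9 and 15 or more in 8, with median input ratios in KO of -0.28, -0.51 and -0.53 and in WT of -0.04, -0.54 and 0.02. Among the 58 members under the 10% limits of overlap and shared windows, 22 were lower and 3 higher in KO at 100 cells. For input in KO 34 were lower and 2 higher, and 15 had a negative interaction.

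A last group of 17 members passed in none of the 6 comparisons, among them Bvht, an RNA of heart development, Tmem250-ps, 2700038G22Rik and 1300002E11Rik, named after their values were seen. Gm42418, of the same group, overlaps AY036118 on the opposite strand over 99.5% of its exons and Gm26825 overlaps Gm15459 over 91.8%, so their counts cannot be assigned to a strand. A p that missed the threshold does not show that these genes were equal between groups.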

How the data were processed

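Gene counts per library were deposited by the authors for 8 libraries in 4 groups of 2. Per the labels and the study's methods, base calling used CASAVA 1.8.2, ribosomal reads were removed with Bowtie2 2.1.0, reads were aligned to mm10 with TopHat2 2.0.10 and counted with HTSeq 0.6.1 (union mode, strand ignored, GENCODE M4), and multi-mapped or ambiguous reads were discarded. Removal of duplicates is not given in the sources used here. The part of PCR duplicates and unequal amplification in the spread between libraries was not tested. At 100 cells the members' median absolute log2 difference between replicates was 0.31 in WT and 0.13 in KO. Column totals were 9666985 to 16686525 counts.

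Gene class and position came from GENCODE M21 on GRCm38, matched by gene identifier for 42425 of 43309 genes. The members and lists were chosen with earlier results of these data known. Genes reaching 10 counts in 1 or more libraries (16816) entered the tests, made with the quasi-likelihood test of edgeR 4.0.16 in R 4.3.3, two-sided, with TMM normalization within the libraries of each fit and Benjamini-Hochberg adjustment over all tested genes at 0.05. The 6 comparisons were KO against WT at each input, 100 against 1000 cells over both genotypes and in each, and their interaction. The standard error was the absolute log2 ratio over the square root of F. DESeq2 1.42.0 was an alternative. Scripts were tested on simulated counts. Tables used pandas 2.3.3 in Python 3.11.15 and figures matplotlib 3.10.9.

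The text names the 10 most abundant members, the 5 largest in each direction at both inputs for genotype and over both genotypes for input, those called for input in WT, the 3 largest interactions and the members of the lists. Others were named after their values were seen. No sample column was left unused.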

Additional observations from a re-analysis of the deposited data

Results flagged for a closer look

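The effect of input differed between the libraries labelled KO and WT for 18 of the 85 lincRNAs, by the interaction term of the edgeR fit (adjusted p at most 0.05 over all tested genes). In each the ratio of 100 to 1000 cells was lower in KO. The log2 interaction was -1.49 for Mir17hg, -1.48 for Gm26764, -1.43 for Gm26707 and -1.41 for Gm12031. It was -1.13 for D930016D06Rik, -1.09 for Snhg20, -0.99 for Platr11, -0.97 for Platr3, -0.95 for Gm26624, -0.94 for Gm20939 and -0.91 for BC051077. It was -0.89 for Lncenc1, -0.85 for EU599041, -0.84 for C920006O11Rik, -0.78 for BC002059, -0.70 for Gm2694, -0.61 for Gm19705 and -0.56 for 4930461G14Rik. Gm26764 and C920006O11Rik were among the members under the 5 CPM limit in KO at 100 cells (4.60 and 4.53 CPM). The choice favored negative values in such members. The calls of Lncenc1 and Gm2694 were lost when any library other than the WT libraries of 100 cells was left out, at an adjusted p of 0.0551 to 0.0903 and 0.0718 to 0.0976. That of EU599041 was lost without WT replicate 1 or KO replicate 2 at 1000 cells or KO replicate 1 at 100 cells (0.0585 to 0.0665).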

How the results depend on the processing

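The alternatives were DESeq2 or its size factors, library size alone, other count filters, thinning to the smallest total, 1 fit of all libraries, a replicate block and each library left out. TMM over all libraries, a trend with GC content and length, and members under the 10% limits of overlap and shared windows were added after the data were seen. Among single members, 1235 recomputed values kept their direction and side of the threshold and 135 lost the call, and none reversed. Members called for genotype at 1000 cells numbered 40, with 29 by DESeq2, 29 in 1 fit of all libraries and 31 to 35 with a library left out. At 100 cells they numbered 40, and 19 to 54 with a library left out. For input over both genotypes they numbered 11, with 17 at a filter of 1 count, 7 with the trend removed and 5 to 23 with a library left out. For input in WT they numbered 3, with 5 at a filter of 1 count, 1 with at least 10 counts in every library, 0 thinned, 6 in 1 fit of all libraries, 0 with the trend removed and 0 to 29 with a library left out. For input in KO they numbered 49, and 39 to 51 with a library left out. The interaction had 18, and 7 to 34 with a library left out. Members under these 10% limits gave 26, 25 and 7 calls for genotype at 1000 cells, at 100 cells and input over both genotypes, of 58 members. Limits of 2 and 10 CPM would have given 165 and 46 members. The causes were not tested, other than the smaller number of members or libraries.

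With the replicate number as a block, 42 members were called for genotype at 1000 cells, 42 at 100 cells, 8 for input over both genotypes, 3 in WT, 49 in KO and 17 for the interaction. Same-numbered libraries did not deviate together over the tested genes (r of -0.04 to 0.05). Whether the same number marks the same clone cannot be told from this, and the sources do not say it. Leaving out a library left a group of 1, assumed to vary like the other groups. That assumption did not hold for WT at 100 cells. The members' median absolute log2 difference between replicates was 0.31 there and 0.13 to 0.15 in the other groups. Fits without a WT library of 100 cells can therefore understate the spread, and their larger numbers of calls are no support for the results.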
